A study of Mus musculus with 18 samples.

Results

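The 2 mature products of the mouse miR-21a hairpin, mmu-miR-21a-5p and mmu-miR-21a-3p, were followed through input and Ψ-IP small RNA libraries of NIH/3T3 cells. They were chosen by name, and miR-21a-5p was selected on measured values, because earlier results of these data had shown its level and its fall in the IP. They fill 2 of the 2045 miRNA rows of the count table, which name 1907 mature miRNAs, and both were among the 534 miRNAs tested. The share of miR-21a-5p, its IP over input ratio within a condition and the changes of that ratio are therefore given as a description with no test. Its input level was tested between conditions, which the choice did not use. miR-21a-3p is the partner arm of the same hairpin.

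NIH/3T3 is an established line of mouse embryonic fibroblasts. Ψ-IP is immunoprecipitation of small RNA with an antibody to pseudouridine (Ψ), an isomer of uridine, and Pus1 is one of the enzymes that make Ψ. Libraries came from WT cells with no knockdown (WT, for which no day is given) and from cells 3 days (KD3) or 6 days (KD6) after Pus1 knockdown, each as input RNA without IP and as Ψ-IP, with 3 replicates (A, B and C) in each of 6 groups and 18 libraries in all. No group has a mock IP or a control knockdown, the knockdown method is not given in the sources used here, and the table holds only miRNAs, so the loss of Pus1 RNA was not checked. The labels do not say whether replicates were separate cultures, so p-values measure only the spread between these libraries.

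Depth ran from 3989031 to 15099781 mapped reads, with a single exception, the KD6 input of replicate A at 241109. The main KD6 values of the members that rest on it are also given without it. Nothing in the libraries fixes the amount of RNA recovered, so each level is a share of a library, and fewer cells of a type or less RNA per cell cannot be told apart. Of the markers of fibroblasts and mesenchyme, all 6 (miR-199a-5p, miR-199a-3p, miR-214-3p, miR-143-3p, miR-145a-5p and miR-10b-5p) were read, with a summed level of 140550 to 205828 reads in each 1000000 miRNA reads (RPM) in the inputs and 132932 to 166171 in the IP libraries. Most of the WT IP sum was miR-10b-5p, with a mean of 118302 RPM against 41392.5 in WT input. The other markers of this list had lower means in WT IP than in WT input. The 5 markers of epithelium summed to 0 to 2.86 RPM in the inputs and 1.34 to 10.8 in the IP libraries, the 5 of blood to 0 to 1.92, and miR-126a-3p of endothelium to 0 to 2.76. The liver miRNA miR-122-5p lay between 23.1 and 84.6 RPM in the inputs and between 83.9 and 226.7 in the IP libraries. Among neuronal markers miR-124-3p was close to 0 in WT input (0.0913 RPM on average) but miR-9-5p had a mean of 3374 RPM there. In the IP libraries miR-9-5p lay between 5494 and 8451 RPM.

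A miRNA hairpin is cut by Drosha and Dicer into a short duplex. One strand, the guide, is kept by an Argonaute protein and pairs with target mRNAs through its seed, bases 2 to 8, while the other strand is usually degraded. miR-21a-5p is the guide of its hairpin. It is known as an abundant miRNA of fibroblasts and many tumours, and it is induced by TGF-β signalling and linked to fibrosis. miR-21a-3p is the passenger strand.

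The Mir21a gene lies on the minus strand of chromosome 11 in GRCm38 (mm10), where RefSeq places the hairpin at chr11:86584067-86584158. In GENCODE M21 the hairpin falls inside an exon of Vmp1, a gene for a membrane protein of autophagy, on the same strand, in a stretch annotated as untranslated region (chr11:86583865-86585310) of transcript Vmp1-201. miR-21a-5p occupies chr11:86584120-86584141 and miR-21a-3p chr11:86584082-86584103. The mature sequences of both arms and of the paralogues miR-21b (chromosome 3) and miR-21c (chromosome 8) are shown because reads can pass between near copies and because the arms differ in base composition. They are RefSeq sequences on GRCm38.p6, written 5′ to 3′ with the seed in capitals.
mmu-miR-21a-5p: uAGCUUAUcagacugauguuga
mmu-miR-21a-3p: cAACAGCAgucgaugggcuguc
mmu-miR-21b: uAGUUUAUcagacugauauuucc
mmu-miR-21c: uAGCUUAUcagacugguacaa

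Of the 1679 mature mouse miRNAs in the RefSeq table, 2 have the seed AGCUUAU, miR-21a-5p and miR-21c, and miR-21a-3p alone has AACAGCA. Counting positions from 1 at the 5′ end of miR-21a-5p, miR-21c shares its first 15 bases and first departs at A16G. miR-21b departs inside the seed at C4U. miR-21a-5p holds 8 uridines and 36.4% GC, and miR-21a-3p holds 4 uridines and 59.1% GC. Among the 462 tested miRNAs with a RefSeq sequence the medians were 6 uridines and 50% GC, 71 had more uridines than miR-21a-5p and 48 had fewer than miR-21a-3p.

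In input RNA, miR-21a-5p was the most abundant miRNA in all 9 libraries, as its label of dominant fibroblast miRNA says. Its reads made up 35.9%, 35.7% and 38.4% of all miRNA reads in WT inputs A, B and C, from 3388838, 4217137 and 4201717 reads. The WT mean was 36.7% ± 1.46 (SD, n = 3). KD3 inputs gave 37.6%, 36.7% and 35.4% (36.6% ± 1.08, SD, n = 3), which overlap the WT values. KD6 inputs gave 48.1%, 32.8% and 29.5% (36.8% ± 9.93, SD, n = 3). The high value came from the shallow replicate A, with 108020 reads of miR-21a-5p. Without it the KD6 mean was 31.2%, and the remaining pair of libraries lay below every WT and KD3 input.

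After Ψ-IP the share was lower in every library, and the IP and input values did not overlap in any condition. The WT IP libraries held 7.67%, 8.69% and 6.59% (7.65% ± 1.05, SD, n = 3). In the KD3 IP libraries the values were 9.74%, 8.41% and 5.45% (7.86% ± 2.20, SD, n = 3). The KD6 IP libraries held 10.1%, 13.4% and 8.55% (10.7% ± 2.50, SD, n = 3). Replicate B of the KD6 IP was the highest IP library and replicate C of the KD3 IP the lowest. The mean share was thus 4.79-fold lower in the IP than in the input of WT cells, 4.65-fold lower in KD3 and 3.44-fold lower in KD6 (2.91-fold without KD6 input A).

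**Figure D1:**
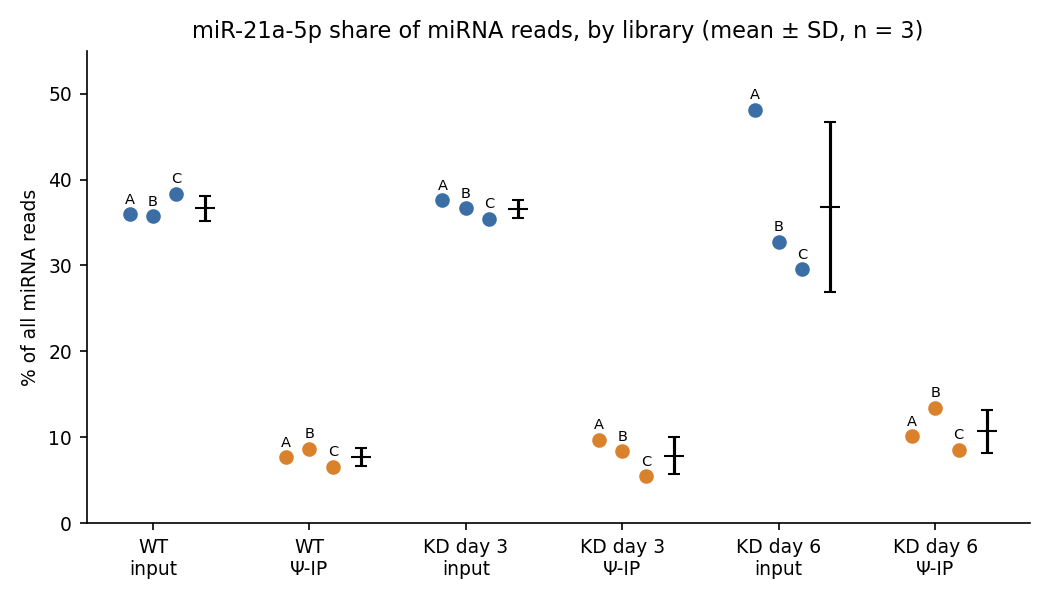
Share of all miRNA reads taken by miR-21a-5p in each library, in percent. Points are replicates A, B and C, and bars give the mean ± SD (n = 3). Inputs lie between 29.5% and 48.1%, the higher bound being the shallow KD6 input A, and all Ψ-IP libraries lie between 5.45% and 13.4%.

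The rank of miR-21a-5p changed with the IP as well. It had rank 5 in all 3 WT IP libraries and ranks 2 to 5 in the KD3 and KD6 IP libraries. In WT input the next miRNAs by mean share were let-7i-5p (9.76%), a member of the let-7 family of differentiation-linked miRNAs, then miR-143-3p (6.49%), a miRNA of mesenchymal and smooth muscle cells, miR-99b-5p (5.47%), the Hox-cluster miRNA miR-10b-5p (4.14%) and let-7f-5p (4.01%). miR-21a-5p had 3.45 to 4.36 times as many reads as the most abundant other miRNA in the WT inputs. In WT IP it had 0.493 to 0.631 times as many.

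The miRNAs that stood above it in WT IP were let-7i-5p (13.3%), miR-10b-5p (11.8%), let-7f-5p (10.7%) and miR-99b-5p (9.97%), and the next below it was let-7e-5p (4.07%). miR-143-3p stood lower, at 1.02% of WT IP reads. The seeds of these neighbours differ from that of miR-21a-5p.
mmu-let-7i-5p: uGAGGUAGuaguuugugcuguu
mmu-let-7f-5p: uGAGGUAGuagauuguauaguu
mmu-let-7e-5p: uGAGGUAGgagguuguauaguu
mmu-miR-10b-5p: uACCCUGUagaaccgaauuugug
mmu-miR-99b-5p: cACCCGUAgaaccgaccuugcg

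These sequences show that the 3 let-7 members share the seed GAGGUAG. They hold 8 to 10 uridines, as many as or more than the 8 of miR-21a-5p, whereas miR-10b-5p holds 7 and miR-99b-5p holds 3.

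Because one miRNA held so much of the input, its share sets how even the library looks. The inverse Simpson index, the number of equally abundant miRNAs that would give the same concentration of reads, was 6.34 ± 0.34 (SD, n = 3) for the WT inputs and 14.5 ± 0.19 for the WT IP libraries. With miR-21a-5p left out the order turned, at 17.2 ± 0.86 for input and 13.5 ± 0.16 for IP, without overlap between the groups. KD3 gave 6.22 ± 0.24 and 14.2 ± 1.04 with miR-21a-5p, and 14.8 ± 0.84 and 13.3 ± 1.01 without it, the latter with overlapping libraries. In KD6 the values were 6.68 ± 2.47 in input and 12.3 ± 0.91 in IP, and without miR-21a-5p 15.5 ± 3.02 and 11.5 ± 0.73, with no overlap either way. Without KD6 input A the input means were 8.05 with miR-21a-5p and 17.0 without it.

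The fall of miR-21a-5p also moves the shares of all others. The other miRNAs together held 63.3% of WT input and 92.3% of WT IP reads, a factor of 1.46 (0.54 on the log2 scale) that each would gain if their ratios to each other stayed as they were. The factors were 1.45 in KD3 and 1.41 in KD6 (1.30 without KD6 input A). For this reason the IP over input ratios below are given both as fitted, with TMM scaling of libraries, and relative to the median of all 534 tested miRNAs. That median was -0.35 in WT, -0.25 in KD3 and -0.28 in KD6 on the log2 scale. As plain shares of miRNA reads, the median log2 ratio was -0.13 in WT, -0.15 in KD3 and -0.62 in KD6 (input A included). The median tested miRNA thus did not gain share in the IP.

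**Figure D2:**
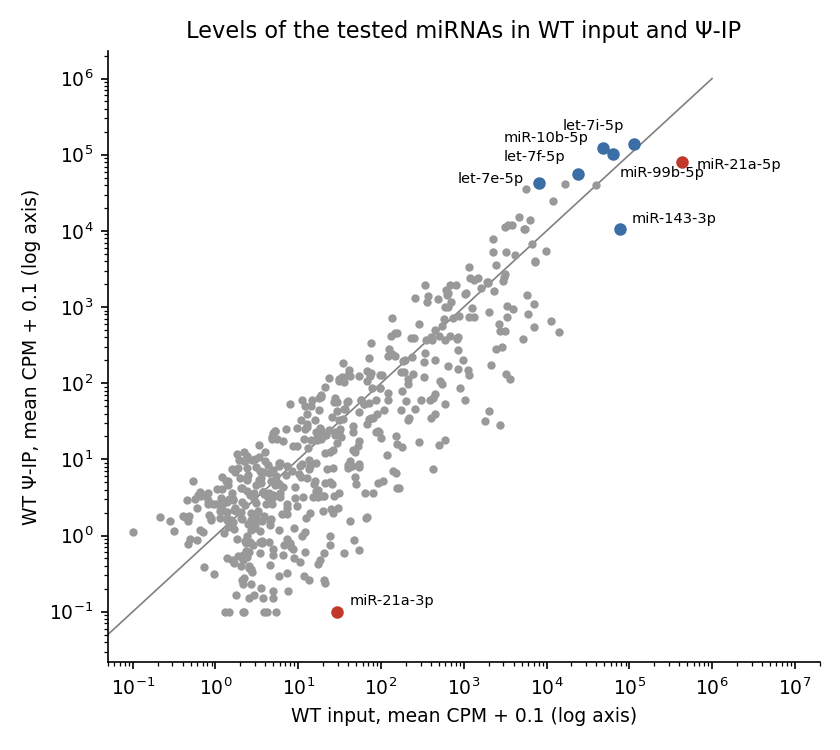
Mean CPM (counts in each 1000000 of the TMM-scaled library size) plus 0.1 of each tested miRNA in WT input (x) and WT Ψ-IP (y), both on log axes, with n = 3 libraries each. Red points are the arms of miR-21a, blue points the most abundant other miRNAs, and the line marks equal levels. miR-21a-5p has the highest input level and lies below the line, and miR-21a-3p, with no read in WT Ψ-IP, lies at the lower edge.

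The fitted log2 ratio of IP over input of miR-21a-5p was -2.44 ± 0.24 (SE) in WT, -2.30 ± 0.24 in KD3 and -1.25 ± 0.23 in KD6. Relative to the median miRNA these were -2.10, -2.05 and -0.96. Without the shallow KD6 input A the fitted KD6 ratio was -1.24. The fall was not extreme among miRNAs, since 23.0% of tested miRNAs had a lower ratio in WT, 23.0% in KD3 and 36.1% in KD6. As background, 40.4% of tested miRNAs were called lower and 26.2% higher in the WT IP, with a Benjamini-Hochberg adjusted p under 0.05 in edgeR's quasi-likelihood test. For KD3 the corresponding shares were 39% and 28.1%, and for KD6 they were 37.6% and 31.1%. All IP libraries were below all inputs in CPM for 44.6% of miRNAs in WT, 42.7% in KD3 and 27% in KD6, and miR-21a-5p was so in each condition. Among the 20 miRNAs with the largest share of WT input, itself included, 3 had a lower ratio than miR-21a-5p, and the lowest was miR-30a-5p at -4.91.

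Across inputs the level of miR-21a-5p did not pass the test in any pair of conditions. The fitted log2 difference in input was -0.04 ± 0.22 (SE) for KD3 minus WT (adjusted p = 0.966), -0.32 ± 0.23 for KD6 minus WT (adjusted p = 0.444) and -0.28 ± 0.22 for KD6 minus KD3 (adjusted p = 0.554). The sign of each of these turned under other scalings. In the same tests, in either direction, 0% of miRNAs were called for KD3 minus WT, 5.06% for KD6 minus WT and 5.99% for KD6 minus KD3. For KD3 minus WT, 46 miRNAs had an unadjusted p under 0.05 in edgeR and DESeq2 called 10. Without KD6 input A the input differences of miR-21a-5p were -0.39 for KD6 minus WT (edgeR adjusted p = 0.318) and -0.49 for KD6 minus KD3 (adjusted p = 0.146).

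The change in the IP over input ratio between conditions was fitted as an interaction. For miR-21a-5p it contains the ratios by which this miRNA was chosen, so it is given with no test. From WT to KD3 the ratio changed by 0.14 ± 0.32 (SE, log2), the same as the median of all miRNAs (0.14). From WT to KD6 the difference was 1.20 ± 0.32 against a median of 0.26, and from KD3 to KD6 it was 1.05 ± 0.32 against a median of 0.12.

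Without KD6 input A the difference from WT to KD6 was 1.21 ± 0.27 and that from KD3 to KD6 was 1.26 ± 0.27. Leaving out any compared library other than KD6 input A lowered both differences below their values with all libraries. For KD6 minus WT these fits ran from 0.53 (without KD6 IP B) to 0.87 (without KD6 IP C). For KD6 minus KD3 they ran from 0.59 (without KD3 IP C) to 0.97 (without KD3 IP A). Other scalings gave lower values for KD6 minus WT, 0.33 ± 0.33 by total mapped reads and 0.51 ± 0.28 by library size without factors. The medians of all miRNAs there were -0.56 and -0.39. By library size without factors KD6 minus KD3 was 0.45 ± 0.28 against a median of -0.48. The sizes of both differences thus depend on the scaling. Both stayed positive in the 24 alternatives run for each, which include the main fit at a stricter threshold.

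**Figure D3:**
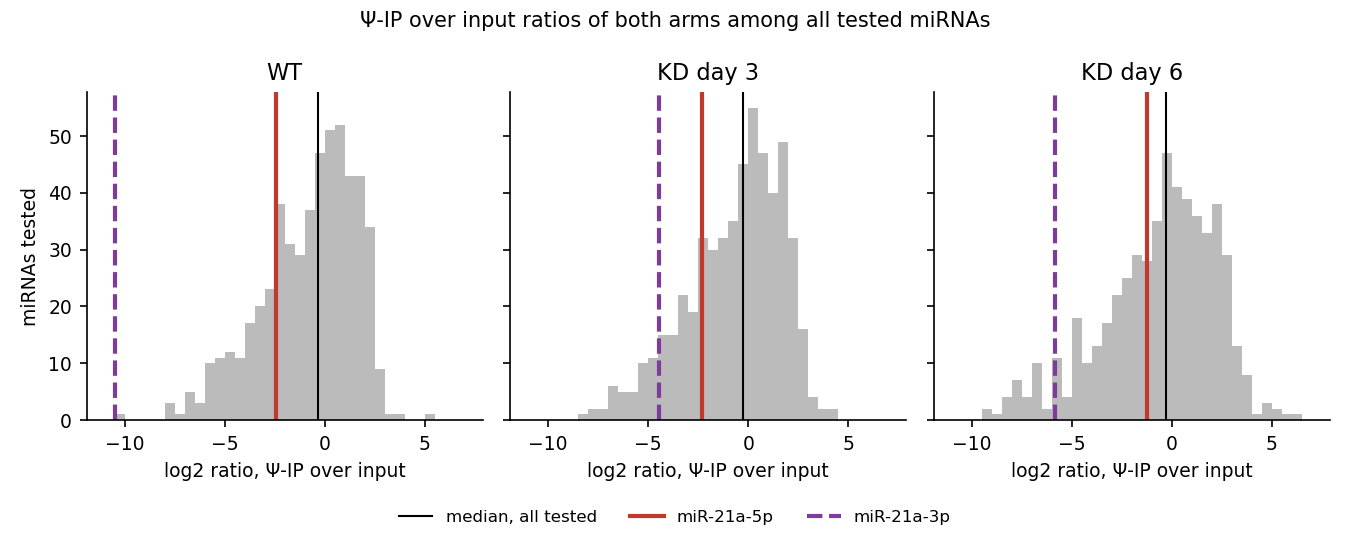
Histograms of the fitted log2 ratio of Ψ-IP over input for the 534 tested miRNAs in WT, KD3 and KD6, with n = 3 libraries a group. The black line is the median miRNA, the red line miR-21a-5p (-2.44, -2.30 and -1.25) and the dashed line miR-21a-3p (-10.48, -4.49 and -5.84). The WT value of miR-21a-3p rests on no IP read and depends on the prior count of the fit.

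The passenger strand miR-21a-3p was rare. WT inputs held 157.8, 310.8 and 353.5 reads of it, or 16.7, 26.3 and 32.3 RPM (25.1 ± 7.84, SD, n = 3). KD3 inputs held 222, 224.5 and 162.3 reads, or 16.2, 19.1 and 20.8 RPM (18.7 ± 2.33, SD, n = 3). KD6 inputs held 3, 114 and 524.8 reads, or 13.4, 19.6 and 63.0 RPM (32.0 ± 27.0, SD, n = 3). Replicate C of the KD6 input stood apart at the top, and the 3 reads of replicate A are no more than the floor of 3 counts used here. Without replicate A the KD6 mean was 41.3 RPM.

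Between inputs no difference in miR-21a-3p passed the test. The log2 differences were -0.46 ± 0.41 (SE) for KD3 minus WT (adjusted p = 0.786), 0.18 ± 0.43 for KD6 minus WT (adjusted p = 0.886) and 0.65 ± 0.43 for KD6 minus KD3 (adjusted p = 0.503). Without KD6 input C the last of these was -0.07, so its direction rests on that library. Without KD6 input A the differences were 0.55 for KD6 minus WT (adjusted p = 0.586) and 0.87 for KD6 minus KD3 (adjusted p = 0.264).

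After Ψ-IP miR-21a-3p was almost absent. None of the WT IP libraries held a read, the KD3 IP libraries held 3, 0 and 8 reads, and the KD6 IP libraries held 0, 1 and 5. Every IP library lay below every input of its condition in RPM. At the input rate, 400.0 reads of miR-21a-3p would have fallen in the 3 WT IP libraries together, and 82.3 if it had fallen by the same factor as miR-21a-5p.

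Against the floor of 3 counts per library, miR-21a-3p was at least 41.4-fold lower in WT IP than in WT input. From pooled reads it was 20.1-fold lower in KD3 (11 against 609 reads, exact 95% interval 11.2 to 40.6) and 100.1-fold lower in KD6 (6 against 642 reads, 45.7 to 273.8). These intervals cover counting error only. Of the 642 KD6 input reads, 524.8 came from input C. Without input A the KD6 fold was 101.2 (46.2 to 276.8).

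miR-21a-3p passed the filter on low counts through the inputs alone, so its IP over input ratio had to be low among tested miRNAs and is given with no test. The fitted log2 ratios were -10.48 ± 1.00 (SE) in WT, -4.49 ± 0.61 in KD3 and -5.84 ± 0.67 in KD6. The KD6 value moved most with one library left out, to -4.47 without KD6 input C and -7.57 without KD6 IP C, and it was -6.22 without KD6 input A. The KD3 value reached -5.40 without KD3 IP C. The WT value depends on the prior count because all its IP libraries are at 0. Of the 225 tested miRNAs with a WT input level at or above that of miR-21a-3p (29.6 CPM), it was the one with no read in any WT IP library. That set starts at the level of miR-21a-3p itself, so it holds no miRNA with a lower input level. Over all 534 tested miRNAs, 8 had none.

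The IP over input ratios of miR-21a-3p rest on 0, 11 and 6 IP reads in WT, KD3 and KD6. Tests of their changes between conditions therefore cannot decide whether the ratio changed, and none passed in the main fit. The changes were 6.00 ± 1.78 (SE, log2) for KD3 minus WT (adjusted p = 0.886), 4.64 ± 2.0 for KD6 minus WT (adjusted p = 0.222) and -1.35 ± 1.08 for KD6 minus KD3 (adjusted p = 0.496). The fitted sizes of the changes from WT again depend on the prior count. Without KD6 input A the changes to KD6 were 4.29 from WT and -1.55 from KD3. Of the tested miRNAs 0% were called for KD3 minus WT, where 15 had an unadjusted p under 0.05 in edgeR and DESeq2 called 0. The shares called were 1.12% for KD6 minus WT and 0.187% for KD6 minus KD3. With no filter on low counts the first had an adjusted p of 0.0330, and its range over alternatives was 0.0330 to 1.00.

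**Figure D4:**
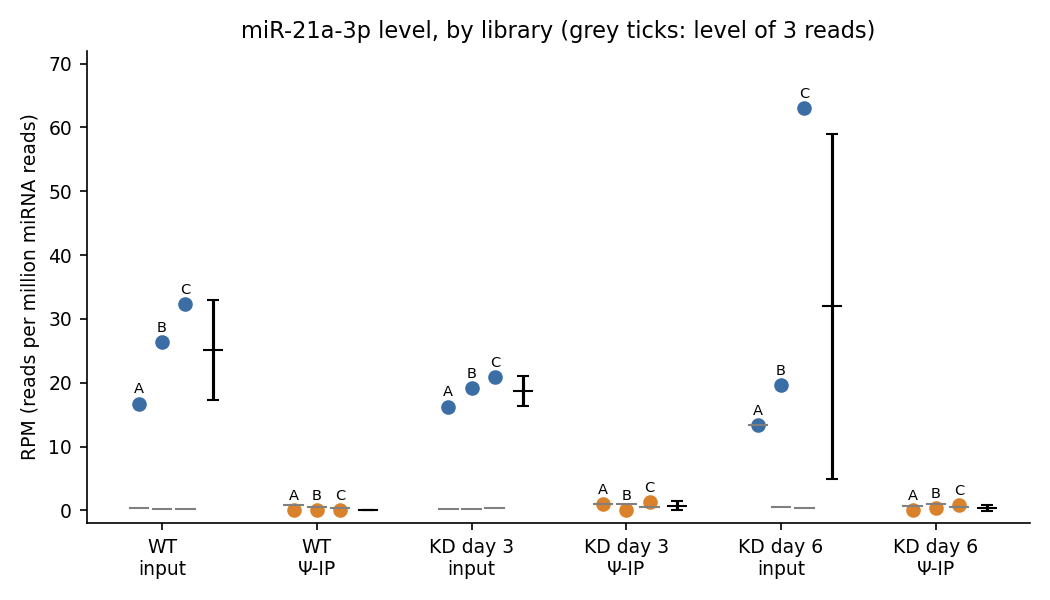
RPM (reads in each 1000000 miRNA reads) of miR-21a-3p in each library. Points are replicates A, B and C, bars the mean ± SD (n = 3), and grey ticks the level that 3 reads would give in that library. Inputs lie between 13.4 and 63.0 RPM and Ψ-IP libraries between 0 and 1.27.

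The arms were far apart in input. Per read of miR-21a-3p, WT inputs held 21476, 13569 and 11886 reads of miR-21a-5p. The log2 ratio of the arms, with 0.5 added to the reads of each, was 13.88 ± 0.45 (SD, n = 3) in WT input, 14.26 ± 0.23 in KD3 input and 13.71 ± 1.39 in KD6 input (13.11 without input A). In the IP it was 19.56 ± 0.37 in WT, 16.83 ± 1.83 in KD3 and 18.10 ± 1.53 in KD6, and the WT IP value is set by the added 0.5. Both arms were thus lower in the IP libraries, the passenger strand by the larger factor.

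Differences of the arm ratio between conditions were tested by two-sided exact permutation of 3 against 3 libraries, for which the smallest possible p is 0.1. Between inputs the exact p was 0.3 for KD3 against WT, 0.9 for KD6 against WT and 0.7 for KD6 against KD3. Between IP groups the exact p was 0.1 for KD3 against WT, 0.2 for KD6 against WT and 0.4 for KD6 against KD3. The Benjamini-Hochberg adjusted values over these 6 comparisons ran from 0.6 to 0.9. The tests between IP groups cannot decide whether the arm ratio changed. No WT IP library held a read of miR-21a-3p, nor did KD3 IP B or KD6 IP A. In these libraries the ratio is set by the added count and the reads of miR-21a-5p. The KD3 and WT IP libraries did not overlap, but all the WT values and the nearest KD3 value are of this kind.

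For comparison, 84 hairpins had both arms at a mean of 10 CPM or more. Their WT input reads were a median of 3.04 log2 units apart between arms, and miR-21a had the widest gap at 13.81 from summed reads, ahead of let-7i at 11.64. In the WT IP the ratio of the 5p arm minus that of the 3p arm was -0.52 at the median (log2), and it was above 0 in 35 of the 84. In 34 of the 84 hairpins both arms had a fitted ratio below 0. The 3 largest differences were those of miR-21a (8.04, with the 3p arm at 0 reads), miR-193a (7.12) and let-7i (6.44). The 3 lowest were those of miR-18a (-7.27), miR-30e (-5.45) and miR-30a (-5.07). Some of these also rest on few reads over the WT IP libraries together: 3.1 for miR-193a-3p, 7 for let-7i-3p and 7.5 for miR-18a-5p. With miR-21a-3p held at its bound, the difference for miR-21a was at least 3.11 on the scale of shares. That would be rank 7 of 84 with the other hairpins left as fitted, also those with few reads. The arm with fewer input reads had the lower ratio in 39 of the 84 hairpins.

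**Figure D5:**
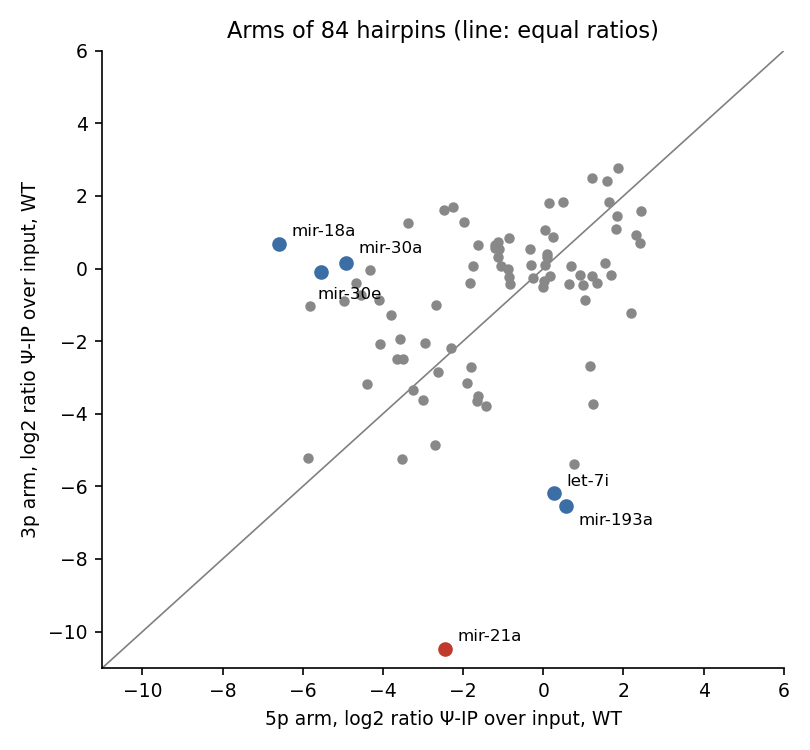
Fitted log2 ratio of Ψ-IP over input in WT for the 5p arm (x) and 3p arm (y) of 84 hairpins with both arms at a mean of 10 CPM or more. The line marks equal ratios, and the hairpins with the 3 largest and the 3 lowest differences are named. miR-21a (red) lies farthest below the line, at a 3p value that rests on 0 IP reads.

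The number of distinct read sequences assigned to each arm gives a second readout, counting end variants, trimmed and tailed forms and sequencing errors, and it grows with depth. WT inputs held 2412, 2527 and 2529 distinct sequences of miR-21a-5p, and WT IP libraries held 861, 1085 and 1057. Each distinct sequence thus stood for 1579 ± 150.2 reads in the WT inputs but for 390.0 ± 47.7 after the IP (SD, n = 3). The KD3 values were 1650 ± 319.6 and 324.8 ± 23.3. KD6 inputs gave 278, 1116 and 1195 and KD6 IP libraries 492.0 ± 19.8, so the shallow input A was below its IP libraries and the others above.

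As a share of all distinct miRNA sequences in a library, miR-21a-5p fell less than as a share of reads. WT inputs had 4.74% ± 0.06 of their distinct sequences from it and WT IP libraries 3.05% ± 0.20 (SD, n = 3). The KD3 values were 4.84% ± 0.11 before and 3.16% ± 0.42 after IP, and the KD6 values 5.71% ± 2.09 before (4.52% without input A) and 3.82% ± 0.41 after IP. miR-21a-3p was read as 39.8, 43.7 and 41.3 distinct sequences in WT input and as 0 to 3 in any IP library.

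The paralogues added almost nothing. miR-21b stood at 1.54 RPM in WT input and 0.406 in WT IP, and miR-21c at 0.816 and 0.109, so a read of either is outnumbered by those of miR-21a-5p in every library. Reads with a sequencing error or a trimmed end can be shared between such near copies, so the values of miR-21b and miR-21c are uncertain. miR-590-5p, also set beforehand in the list of the miR-21 seed family, was not matched by name to a sequence or a count. The 2 miRNAs found with the seed AGCUUAU therefore do not cover it.

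Across the 18 libraries, the miRNAs with a profile most like that of miR-21a-5p were sought by the root mean square difference of log2 CPM, each centred on its own mean, among 150 other miRNAs at a mean of 100 CPM or more. They were miR-218-5p (0.36), miR-532-5p (0.45), miR-24-3p (0.45), miR-27b-3p (0.50) and miR-27a-3p (0.50). Pearson's r with miR-21a-5p was 0.89 to 0.97 over all libraries, which share the gap between IP and input, and -0.30 to 0.81 over the 9 inputs. Their fitted WT ratios ran from -1.71 (miR-218-5p) to -3.15 (miR-27a-3p). RefSeq sequences were matched for 4 of these 5, all but miR-532-5p, and their seeds differ from that of miR-21a-5p.
mmu-miR-218-5p: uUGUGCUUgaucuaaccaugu
mmu-miR-24-3p: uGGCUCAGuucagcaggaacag
mmu-miR-27a-3p: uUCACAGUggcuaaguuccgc

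For miR-21a-3p the nearest of 297 candidates at 10 CPM or more were miR-300-3p (0.63), miR-30e-5p (0.65) and miR-210-3p (0.65), the last known as a hypoxia-induced miRNA. They had WT ratios of -5.04, -5.54 and -5.04 and r of 0.97 each over the 18 libraries, which again share the IP and input gap.

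Other miRNAs tied to fibroblast activation and fibrosis were set beside miR-21a-5p as lists, chosen with earlier results of these data known. Of 9 fibrosis-promoting miRNAs, all tested, 6 were lower and 2 higher in the WT IP and 1 did not pass. Their median log2 ratio was -0.83 against -0.35 for all miRNAs, of which 40.4% were called lower and 26.2% higher. miR-199a-5p (-4.10 ± 0.27, SE), miR-143-3p (-2.85 ± 0.18) and miR-214-3p (-2.50 ± 0.22) lay below miR-21a-5p. The inflammatory miRNA miR-155-5p (2.37 ± 0.21) and miR-222-3p (0.74 ± 0.31) were higher in the IP, and miR-221-3p, which shares a cluster with miR-222, had a ratio of -0.42 ± 0.33 (adjusted p = 0.258). In KD3 4 of the 9 were lower and 2 higher, against 39% and 28.1% of all miRNAs, with a median of -0.40 against -0.25. In KD6 3 were lower and 2 higher, against 37.6% and 31.1%, with a median of -0.48 against -0.28.

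Of 9 fibrosis-restraining miRNAs, miR-133a-3p, a muscle miRNA, had no read in any input and 8 were tested. In the WT IP 7 were lower and 1 was higher, with a median log2 ratio of -2.12 against -0.35 for all miRNAs, of which 40.4% were called lower. The counts were the same in KD3 and KD6, where 39% and 37.6% of all miRNAs were called lower. miR-101a-3p (-5.81 ± 0.23, SE) and miR-30a-5p (-4.91 ± 0.18) fell most. The collagen-targeting miR-29 family followed, with -2.03 ± 0.33 for miR-29a-3p, -2.70 ± 0.87 for miR-29b-3p and -2.17 ± 0.44 for miR-29c-3p. The member that was higher was miR-26a-5p (0.98 ± 0.23). Between inputs, 5.06% of all miRNAs were called for KD6 minus WT. There 1 member of the promoting list passed, miR-214-3p (-1.08 ± 0.21, adjusted p = 0.00328), and no member of the restraining list did. The median difference of all miRNAs was -0.25. For KD6 minus KD3, in which 5.99% of all miRNAs were called, miR-214-3p (-1.04 ± 0.21) and miR-143-3p (-0.61 ± 0.17) of the promoting list and miR-101a-3p (-0.83 ± 0.18) and miR-24-3p (-0.65 ± 0.19) of the restraining list were lower in KD6 input. These fitted values stand against a median of -0.11 for all miRNAs, and miR-21a-5p at -0.28 did not pass. Over all miRNAs the 27 calls for KD6 minus WT inputs fell to between 0 and 6, and the 32 for KD6 minus KD3 to between 2 and 4, when any one library compared other than KD6 input A was left out.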

How the data were processed

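Small RNA of NIH/3T3 cells, as input or after Ψ-IP with a monoclonal antibody to pseudouridine and elution with free Ψ triphosphate, was made into libraries and sequenced. The authors trimmed the 3′ adapter, ran the SeqImp pipeline (the SeqImp version is not given in the sources used here) with default mouse settings on mm10 with Ensembl and miRBase annotation, and deposited unnormalized estimated counts of mapped reads for each library and each pair of mature miRNA and precursor. A read that fits several loci was divided among them, and 47.0% of nonzero values were not whole. A second deposited set of estimated counts gives distinct read sequences. A row of library totals was left out of all tests. Reads in no miRNA row made up the rest of each library, as miRNA rows held 61.8% to 94.5% of mapped reads.

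The 18 libraries were grouped by their labels. Shares used all miRNA rows as denominator. For tests each miRNA was represented by its row with the largest total, and estimated counts were rounded to whole numbers. They were fitted in R 4.3.3 with edgeR 4.0.16 (TMM, filterByExpr, glmQLFit, glmQLFTest) in one model of 6 group means, with Benjamini-Hochberg adjustment over 534 miRNAs and a threshold of 0.05, for 9 comparisons. The SE of a fitted log2 value was derived from its quasi-likelihood F statistic. DESeq2 1.42.0, the authors' tool, was an alternative, as were other scalings, filters, sets of libraries and the replicate letter as a block. Exact permutation tests used SciPy 1.17.1. The script was tested on simulated data.

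Same-lettered libraries deviated together, over 197 miRNAs, for KD3 against WT inputs (correlations 0.22, 0.33 and 0.59) and KD6 against KD3 inputs (0.24 to 0.32). For KD6 against WT inputs the correlations were 0.07 to 0.40. For IP against input they were -0.18 to -0.02 in WT, -0.11 to 0.35 in KD3 and -0.23 to 0.49 in KD6.

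The members and lists were chosen with earlier results of these data known. miRNAs were named by a rule: the members, the lists, the 5 other miRNAs of highest mean share, in the inputs and in the IP libraries of WT cells, the nearest profiles and the 3 hairpins at either end of the arm difference. Counting error limits values at low depth, and a count of 0 allows 3 counts. KD6 values without input A beyond the fits were added after seeing the data. RefSeq sequences matched 462 of the tested miRNAs by name.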

Additional observations from a re-analysis of the deposited data

How the results depend on the processing

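Of 531 alternative values, 452 kept direction and side of the threshold or moved within the spread. The others were classed as reversed (52), moved (24) or stronger (3). The log2 ratio of miR-21a-5p in the WT IP was -2.11 with RLE size factors and with DESeq2, -1.71 with upper-quartile factors, -2.18 by library size without factors, -1.80 with miR-21a-5p left out of library sizes and -2.23 at a mean of at least 10 counts. Leaving out one library gave -2.57 to -1.66, the latter without WT input C. In KD3 it was -1.61 with upper-quartile factors and -2.69 to -1.75 with one library left out, and in KD6 -2.11 by total mapped reads, -1.91 with no abundance filter and -1.89 to -1.05 with one library left out. Relative to the median it was -2.46 in WT and -1.80 in KD6 with no filter and -2.24 to -2.06 in WT, -2.34 to -1.83 in KD3 and -1.53 to -0.76 in KD6 with one library left out.

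The change of miR-21a-5p from WT to KD3 was -0.17 by total mapped reads, -0.053 with miR-21a-5p left out of library sizes, -0.012 at 10 counts and -0.27 to 0.12 with one library left out. Changes to KD6 were 0.53 to 1.21 from WT and 0.59 to 1.26 from KD3 with one library left out. The change from WT to KD6 was 0.33 by total mapped reads, and that from KD3 to KD6 was 0.45 by library size without factors. The change of miR-21a-3p from WT to KD3 was 5.74 with no filter, past the threshold, though the WT IP libraries held no read of it. Input differences of miR-21a-5p, KD3 minus WT, were 0.11 with RLE, at 10 counts, with the libraries compared alone (0.11 with the replicate block as well) and with DESeq2, 0.083 with upper-quartile factors, 0.052 with miR-21a-5p left out of library sizes, 0.16 with no filter and 0.028 to 0.12 with one library left out. For KD6 minus WT they were 0.053 with RLE, DESeq2 and the libraries compared alone, 0.14, 0.086, 0.17 and 0.10 with upper-quartile factors, without miR-21a-5p, with no filter and at 10 counts, and -0.39 to 0.34 with one library left out. For KD6 minus KD3 they were 0.053 with upper-quartile factors, 0.010 by library size, 0.027 by total reads, 0.034 without miR-21a-5p, 0.0054 with no filter, 0.014 with the libraries compared alone and -0.49 to 0.27 with one library left out. The input difference of miR-21a-3p was -0.028 with the replicate block for KD6 minus WT, and -0.43 to 0.77 and, for KD6 minus KD3, -0.074 to 1.13 with one library left out. The cause of these moves was not tested.

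By total mapped reads the share of miR-21a-5p was 34.6% in WT input, 6.38% in WT IP, 33.04% in KD3 input, 5.39% in KD3 IP and 7.81% in KD6 IP, and with one row per miRNA 39.5%, 8.71% and 39.2% in the first 3. The arm log2 ratio in WT IP was 18.56 with 1 added. The replicate block changed no call of miR-21a-3p between conditions and none of the input level of either arm. Counts of calls over all miRNAs moved by over 1.5 times for changes and inputs: for KD6 minus WT changes from 6 to between 0 and 51, for KD6 minus KD3 changes from 1 to between 0 and 48, for KD3 minus WT inputs from 0 to 86 with the libraries compared alone and the block, for KD6 minus WT inputs from 27 to as few as 0, and for KD6 minus KD3 inputs from 32 to as few as 2, both with one library left out.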
